A study of Mus musculus with 3 samples.

Results

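Solute carriers (Slc) are the membrane transporters that move amino acids, sugars, metals, ions, nucleotides and vitamins across the plasma membrane and the membranes of mitochondria, the Golgi and lysosomes, and each numbered family shares a fold or a group of substrates. N6-methyladenosine (m6A) is the most frequent internal mark of mRNA. It is written by the METTL3 complex, mostly at the motif DRACH, in which D stands for A, G or T, R for A or G and H for A, C or T, and it is known to gather near stop codons and in long exons. The genes described here were chosen by a measured value, the presence of at least 1 predicted m6A site on the gene's strand within its annotated span, in protein-coding genes named Slc and a number (GENCODE M21, GRCm38). Of the 371 such genes of the annotation, 105 held a site (28.3%), beside 23.1% of all protein-coding genes, and these 105 genes held 445 of the 19301 sites of the list. Because presence chose the genes, nothing is read from that share.

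The sites came from miCLIP2, in which an m6A antibody is crosslinked to poly(A)+ RNA and the ends of the truncated cDNAs mark the crosslinked base. The cells were RAW 264.7, a mouse macrophage line grown from a virus-induced tumour, and all 3 replicates were untreated, so the series holds 1 group and no second condition. The replicates enter 1 deposited list that gives a position, a strand and a prediction score for each site. The score is the output of m6Aboost, a trained model that reads the sequence around a peak, its transcript region, its signal relative to the transcript and its C-to-T changes. It is not a methylation level. The list holds no value of a single replicate, so no difference below could be tested over samples, and the depth behind a site is unknown. Of 8 macrophage genes used to check the label, 5 held sites: Csf1r 11, Cd14 13, Spi1 6, Fcgr1 6 and Lyz2 2, while Adgre1, Cd68 and Itgam had none. Beside the 23.1% of all protein-coding genes with a site, 8 genes are too few to check the label by sites. Transcript levels were not part of the list, so a gene without a site may be unmethylated, unpredicted or little expressed, and these cannot be told apart here.

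The 5 highest-scoring sites are shown as the ones the model ranked first, and sequence is one of its inputs. Each line gives 21 bases of the transcribed strand (GRCm38), with the 5 bases centred on the predicted adenosine in capitals.
Slc52a2, chr15:76541091-76541111, plus strand: agcggaaaGGACTgtgtggac
Slc2a1, chr4:119136855-119136875, plus strand: ctaataccGAACTctgagcta
Slc9a3r1, chr11:115180481-115180501, plus strand: agaaaaatGAACTcttcagca
Slc35b4, chr6:34156826-34156846, minus strand: ggcaaagaGAACTgtcctaat
Slc39a14, chr14:70304142-70304162, minus strand: gaactcaaGAACTttgaggaa
The site of Slc52a2, a riboflavin transporter, had a score of 1.00 and lay in the CDS 23 nt before the stop codon. The site of Slc2a1, the glucose transporter GLUT1, scored 0.976 and lay in the 3′ UTR, 421 nt after the first base of the stop codon, from which all distances here are counted along the spliced transcript. Slc9a3r1, a scaffold protein that binds exchangers and is not itself a carrier, held a site of score 0.970 at 16 nt before the stop codon. In Slc35b4, a carrier of nucleotide sugars, the site scored 0.966 and lay 1546 nt after the stop codon. The site of Slc39a14, a zinc and iron importer, scored 0.966 and lay 2516 nt after it. GAACT stood at 4 of these 5 sites and GGACT at the other, whereas over all sites of the Slc genes GGACT was the more frequent, with 96 to 56.

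At least 1 of the 105 genes did not hold sites of its own. Slc22a14, an organic ion transporter family gene, was listed with 12 sites, none of them in an exon of any of its transcripts. Its annotated span (chr9:119169455-119365553, minus strand) reaches across neighbouring genes, and 4 of the sites lay in exons of Myd88, the adaptor of Toll-like receptors, and 8 in exons of Oxsr1, a kinase. It is counted below by the rule, and leaving it out gives 104 genes and 433 sites. All 6 sites of Slc39a7 also lay in exons of the overlapping gene model Gm20427, and 1 of the 2 sites of Slc10a3 in an exon of Ubl4a. Another 8 sites, among them those of Slc44a1 and Slc39a13, lay in an exon of a shorter or alternative transcript of the gene and not on the transcript with the longest CDS. The remaining 425 sites were exonic on that transcript. The names also bring in 3 genes that are no carriers: Slc9a3r1, Slc4a1ap and Slc7a6os.

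The number of sites per gene ranged from 1 to 14, with a median of 3 (quartiles 2 and 6). A single site was found in 20 genes, 2 sites in 22, 3 to 5 in 34, 6 to 9 in 21 and 10 or more in 8. The 10 genes with the most sites held 115 sites, 25.8% of the total. In the 4970 other protein-coding genes with a site the median was also 3 (quartiles 1 and 5). Across the 105 genes the number of sites followed the number of DRACH adenosines of the spliced transcript only weakly (Spearman rho 0.21, Pearson r 0.16), and the relation to the length of the 3′ UTR was of the same size (rho 0.21, r 0.16). The genes share 1 list, and these values describe it without a test.

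**Figure D1:**
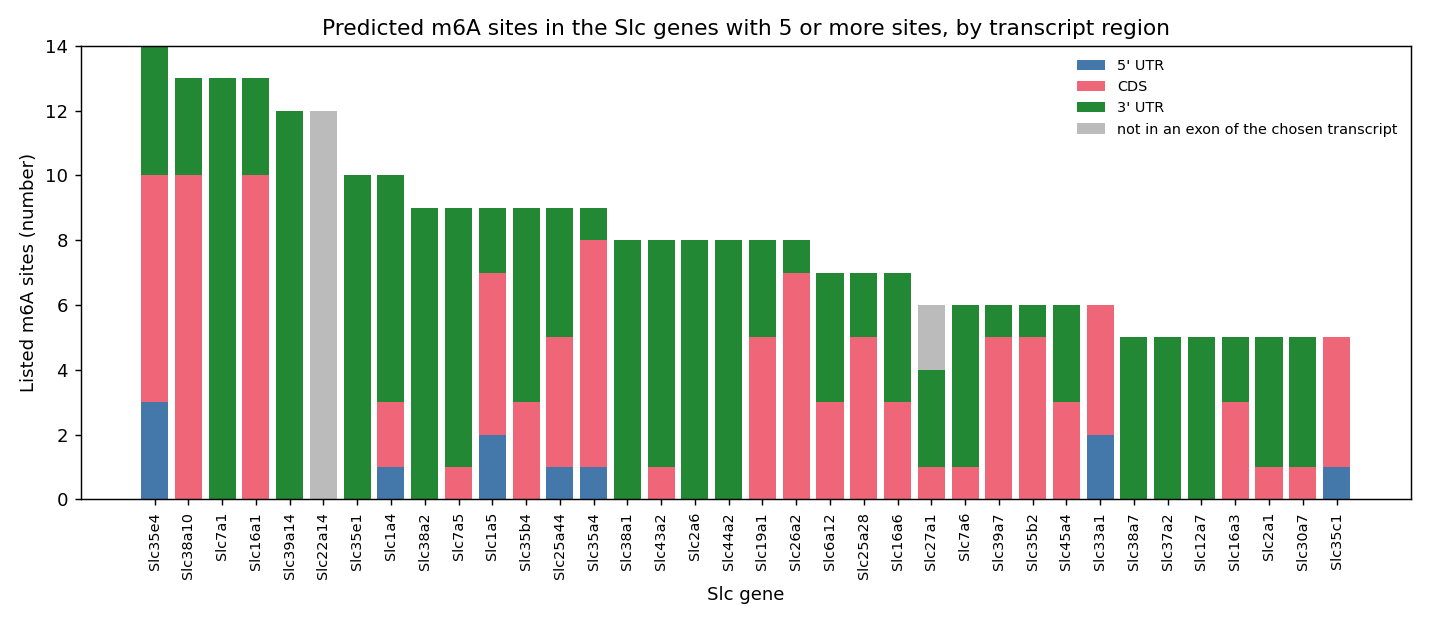
Bars show the number of listed m6A sites (vertical axis) in each of the 36 Slc genes with 5 or more sites (horizontal axis), divided by transcript region on the transcript with the longest CDS. Slc7a1, Slc39a14 and Slc35e1 are 3′ UTR only, Slc38a10 and Slc16a1 are mostly CDS, and the grey bar of Slc22a14 marks the 12 sites that lie in other genes.

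By region of the transcript with the longest CDS, 251 of the 445 sites lay in the 3′ UTR (56.4%, 95% Wilson interval 51.8 to 60.9), 155 in the CDS (34.8%, 30.6 to 39.4) and 19 in the 5′ UTR (4.27%, 2.75 to 6.57). In the other protein-coding genes with a site, 41.5% of 19571 pairs of a site and a gene were in the 3′ UTR, 49.95% in the CDS and 2.07% in the 5′ UTR. Over all sites, the 3′ UTR was thus the main region in the Slc transcripts and the CDS in the rest of the list. With only the highest-scoring site of each gene, so that each gene counts once, the 3′ UTR share was 61.0% (51.4 to 69.7) in the Slc genes and 48.2% (46.8 to 49.6) in the others, and the CDS share 32.4% and 44.4%. Counted this way, the 3′ UTR was the main region in the other genes too. The median 3′ UTR was 1237 nt in the Slc genes with a site and 1017 nt in the others, and the median CDS 1479 and 1444.5 nt. These intervals cover counting error only, since sites of 1 transcript share their source, and the part of transcript length in the shares was not tested. Of the 105 genes, 37 had exonic sites in the 3′ UTR only, 17 in the CDS only and 39 in both, and 14 had a site in the 5′ UTR.

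Counted from the stop codon, the median exonic site of the Slc genes lay 74 nt after it (quartiles -464 and 357), against -69 nt (quartiles -928 and 194) in the other genes. Within 200 nt on either side lay 36.2% of the 425 exonic sites (31.8 to 40.9), and 32.3% in the other genes; counted once per gene, the shares were 42.6% (33.4 to 52.3) and 42.0%. A site in this window was found in 70 of the 105 genes. The bin from 100 to 199 nt after the stop codon held the most Slc sites, 57 (13.4%), ahead of the first 100 nt with 50 (11.8%), while the other genes had 8.42% and 11.6% in these bins.

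**Figure D2:**
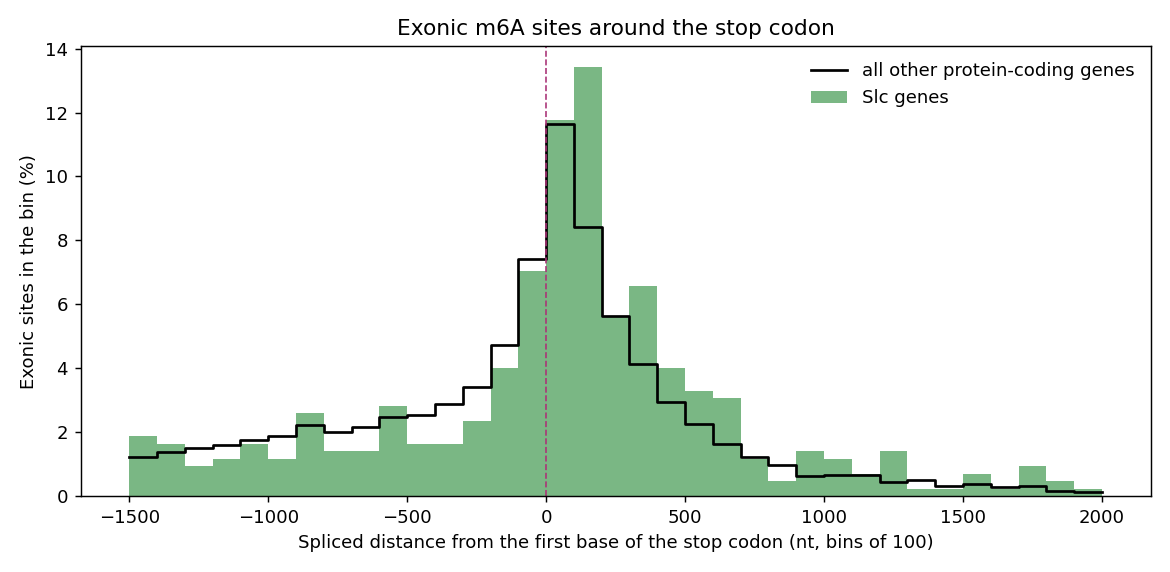
Percent of exonic sites (vertical axis) in bins of 100 nt from the stop codon along the spliced transcript (horizontal axis), for the 425 sites of the Slc genes (green bars) and the sites of all other protein-coding genes (black line). Both peak just after the stop codon, with the Slc bars highest, 13.4%, at 100 to 199 nt.

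To take account of where the motif occurs, each DRACH adenosine of the spliced transcripts was counted. The Slc transcripts with a site held 6845, of which 392 were listed (5.73%, 5.20 to 6.30), against 4.62% in the other genes with a site. In the first 200 nt after the stop codon, 99 of 415 were listed (23.9%, 20.01 to 28.2), and 16.2% (15.7 to 16.7) in the other genes. Beyond 1000 nt the share was 1.80% (1.3 to 2.48) and 1.14% (1.07 to 1.22). In the whole 3′ UTR it was 6.35% (5.61 to 7.19) and 4.98%, in the CDS 5.19% (4.42 to 6.10) and 4.54%, and in the 5′ UTR 3.87% (2.46 to 6.04) and 2.31%. The Slc value was the higher one in each of the regions counted, though in the CDS its interval holds the value of the other genes. The first 200 nt and the part beyond 1000 nt belong to the 3′ UTR and are no separate regions. Adenosines of 1 transcript share their source, so the intervals cover counting error only, and no share counted once per gene was computed here. A predicted site needs reads, and whether the Slc transcripts with a site were more abundant was not tested.

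**Figure D3:**
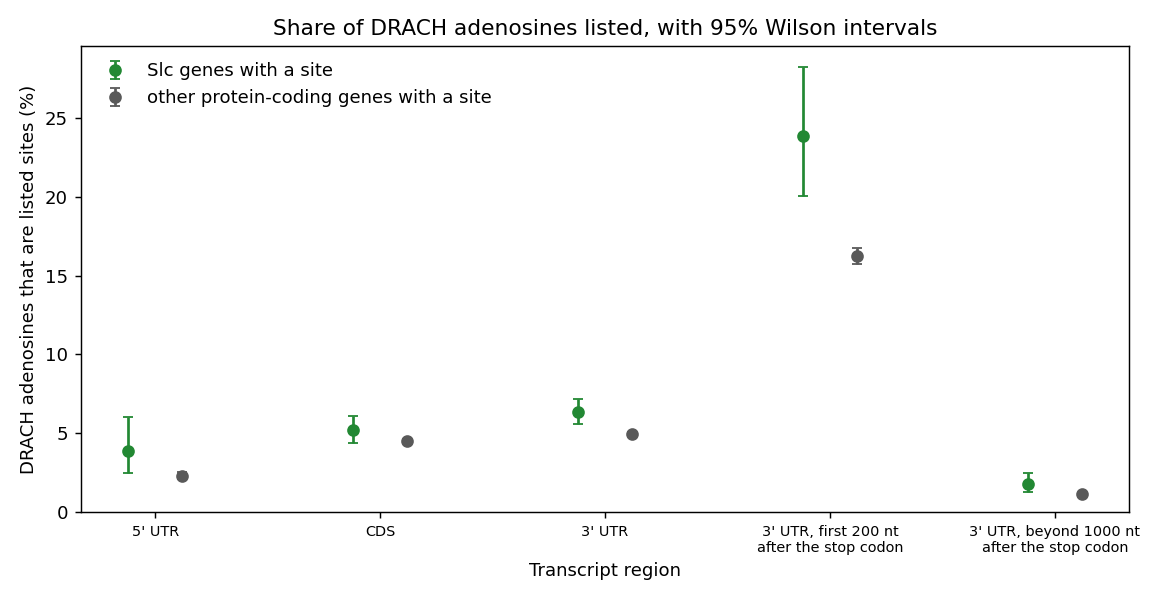
Points give the percent of DRACH adenosines that are listed sites (vertical axis) by transcript region (horizontal axis), for the Slc genes with a site (green) and the other protein-coding genes with a site (grey), with 95% Wilson intervals as bars. The first 200 nt after the stop codon stand highest in both sets, at 23.9% and 16.2%.

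By exon, the last exon held 333 of the 425 exonic sites (78.4%, 74.2 to 82.0), against 68.6% in the other genes. Internal exons over 400 nt held 44 (10.4%, 7.80 to 13.6), against 19.3%, and shorter internal exons 11 (2.59%), against 7.44%. First exons held 37 (8.71%, 6.38 to 11.8), against 4.596%. Counted once per gene, the first exon held 4.95% (2.13 to 11.1) against 4.53%, internal exons over 400 nt 9.90% (5.47 to 17.3) against 13.4%, and the last exon 81.2% (72.5 to 87.6) against 72.9%, so the first-exon shares then lay close together. Among the first-exon sites were 6 of the 14 sites of Slc35e4, whose first exon is 2099 nt long, and 6 of the 9 sites of Slc1a5.

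Spacing of the sites was much like that in the rest of the list. Of the 425 exonic sites, 252 had another site within 100 nt (59.3%, 54.6 to 63.9), and 60.0% did so in the other genes. Neighbouring sites of a Slc transcript were a median of 107 nt apart, against 101 nt. The longest run, with steps of at most 100 nt, was that of Slc35e1, an orphan relative of the nucleotide sugar carriers (chr8:72480641-72492614, minus strand): 9 of its 10 sites lay within 312 nt, from 67 to 378 nt after the stop codon, with a mean score of 0.758. Slc39a14 (chr14:70303469-70351425, minus strand) had 4 sites within 95 nt, from 34 to 128 nt after the stop codon, with a mean score of 0.921. These 4 sites are shown because they form a dense run of high scores that begins right after the stop codon.
Slc39a14, chr14:70306624-70306644, minus strand: gtggcattGGACAtcgggctc
Slc39a14, chr14:70306584-70306604, minus strand: cggcccgaGGACTcagcatcc
Slc39a14, chr14:70306540-70306560, minus strand: ctctttaaAAACTggcacaga
Slc39a14, chr14:70306530-70306550, minus strand: actggcacAGACTtgtctgcc
Their scores were 0.963, 0.942, 0.935 and 0.846 in transcript order, and each stood at a different motif.

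The genes with the most sites differed in how the sites were laid out. Slc35e4 (chr11:3907021-3914664, minus strand), a member of the nucleotide sugar carrier family whose substrate is not settled, had the most, with 14, of which 7 were coding, 3 lay upstream in the 5′ UTR and 4 downstream of the stop codon. Their mean score was 0.652 ± 0.112 (SD over 14 sites), the lowest mean among the 10 genes with the most sites. Slc38a10 (chr11:120103960-120151346, minus strand), of the sodium-coupled amino acid transporter family, had 13, of which 10 lay in the CDS, 8 of them in the last exon of 2077 nt. Slc16a1 (chr3:104638668-104658462, plus strand), the lactate and pyruvate carrier MCT1, also had 13, with 10 in the CDS and a mean score of 0.668 ± 0.0862. The 10 included 6 in its exon 4 of 846 nt. Slc7a1 (chr5:148327410-148399904, minus strand), the arginine and lysine importer CAT1, had 13 as well, all in its 3′ UTR of 5030 nt. They ran from 160 to 1223 nt after the stop codon, with 1 more at 3872 nt, and the highest, at 670 nt, scored 0.953.

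Other leading genes had most of their sites in the 3′ UTR. All 12 sites of Slc39a14 lay in the 3′ UTR, with a mean of 0.849 ± 0.129 and 5 sites of at least 0.9. Slc38a2 (chr15:96687392-96699730, minus strand), the neutral amino acid importer SNAT2, had 9 sites, all in the 3′ UTR, with a mean of 0.876 ± 0.0783. Only 1 of them lay within 200 nt of the stop codon, and the other 8 stood 1067 to 2079 nt after it. Slc1a4, a neutral amino acid exchanger, had 7 of its 10 sites in the 3′ UTR, spread from 172 to 1763 nt after the stop codon, and a median score of 0.744 over all 10. Slc7a5, the large neutral amino acid transporter LAT1, had 8 of 9 there, and its 3 sites at 561, 567 and 600 nt, all at GGACT, scored 0.898, 0.869 and 0.901. Slc7a5's only CDS site was in the first exon.

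**Figure D4:**
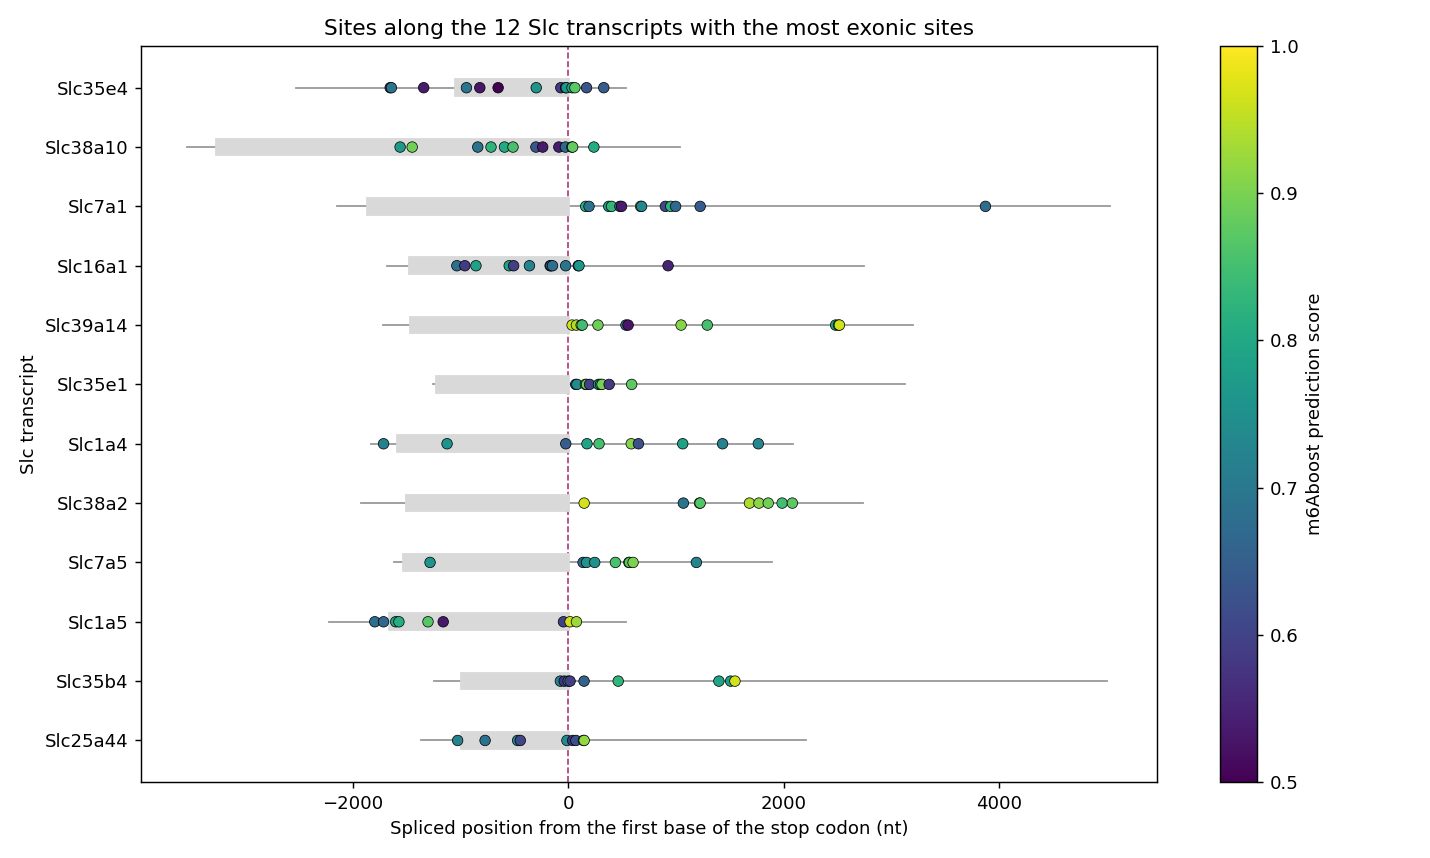
Spliced transcripts of the 12 Slc genes with the most exonic sites, in nt from the first base of the stop codon (horizontal axis), with the CDS as a grey box, the UTRs as lines and each site as a point coloured by prediction score. The sites of Slc7a1, Slc39a14, Slc35e1 and Slc38a2 lie right of the stop codon, and those of Slc38a10 and Slc16a1 mostly left of it.

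In Slc38a2, most sites far from the stop codon carried high scores, though the one at 1067 nt scored 0.691, the lowest of the gene. The first site and the 3 of the distal run, which had a mean score of 0.914, read as follows.
Slc38a2, chr15:96689973-96689993, minus strand: gaataagtGAACTtttctttc
Slc38a2, chr15:96688438-96688458, minus strand: gccattaaAGACTcttgcaga
Slc38a2, chr15:96688350-96688370, minus strand: acccctggGGACTgtgtagac
Slc38a2, chr15:96688264-96688284, minus strand: ctcgtcaaAGACTctgcacct
The first stood 146 nt after the stop codon and scored 0.965. The distal sites stood at 1681, 1769 and 1855 nt and scored 0.938, 0.914 and 0.892.

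Genes were also grouped by what their family carries. The classes follow family numbers, so Slc9a3r1 and Slc4a1ap are counted with the inorganic ion carriers and Slc7a6os with the amino acid carriers although they carry nothing. The shares of genes with a site are to be set beside the 28.3% of all Slc genes and the 23.1% of all protein-coding genes, and as presence chose the genes nothing is read from them. Among carriers of amino acids and peptides, 19 of 69 genes had sites, 117 in all, with a median of 6 sites per gene. Mitochondrial carriers, the Slc25 family, had 19 of 47 genes with 58 sites and a median of 3. Carriers of nucleosides and nucleotide sugars had 14 of 34 genes and 70 sites, carriers of metals and heme 15 of 33 genes and 48 sites, and those of inorganic ions 14 of 59 genes and 35 sites. Organic anion, cation and carboxylate carriers had 9 of 53 genes and 51 sites, of which 12 were the Slc22a14 sites. Vitamin, lipid and cofactor carriers had 8 of 24 genes and 39 sites, and sugar carriers 7 of 34 genes and 27 sites. None of the 18 genes of other families had a site, and of 49 families in the annotation 34 had a member here. Slc22, a family of 25 genes in the annotation, was represented by Slc22a14 alone, whose sites were those of Myd88 and Oxsr1.

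The share of sites in the 3′ UTR spanned a wide range over the classes, whose differences were not tested. Of the exonic sites of sugar carriers 77.8% lay in the 3′ UTR (59.2 to 89.4), of amino acid carriers 70.9% (62.2 to 78.4) and of metal carriers 65.96% (51.7 to 77.8). At the other end stood the carriers of organic anions and carboxylates with 38.5% (24.9 to 54.1) and of inorganic ions with 42.4% (27.2 to 59.2). The median 3′ UTR was 1472 nt in the sugar class, 1649 nt in the amino acid class and 1969 nt in the metal class. It was 813.5 to 1078 nt in the nucleoside, mitochondrial, inorganic ion and vitamin classes, and 2289 nt in the organic anion class. The part of this length in the shares was not tested. Mitochondrial carriers had the largest share within 200 nt of the stop codon, 56.1% (43.3 to 68.2), against 34.2% (26.2 to 43.2) in amino acid carriers. Single genes weigh in these shares: Slc16a1 gave 13 of the 39 exonic sites of its class, and Slc26a2, the sulfate transporter that led the ion class, 8 of 33, of which 7 were in the CDS. Median scores ran from 0.710 in the vitamin class to 0.783 in the sugar class, within the quartiles of every class.

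**Figure D5:**
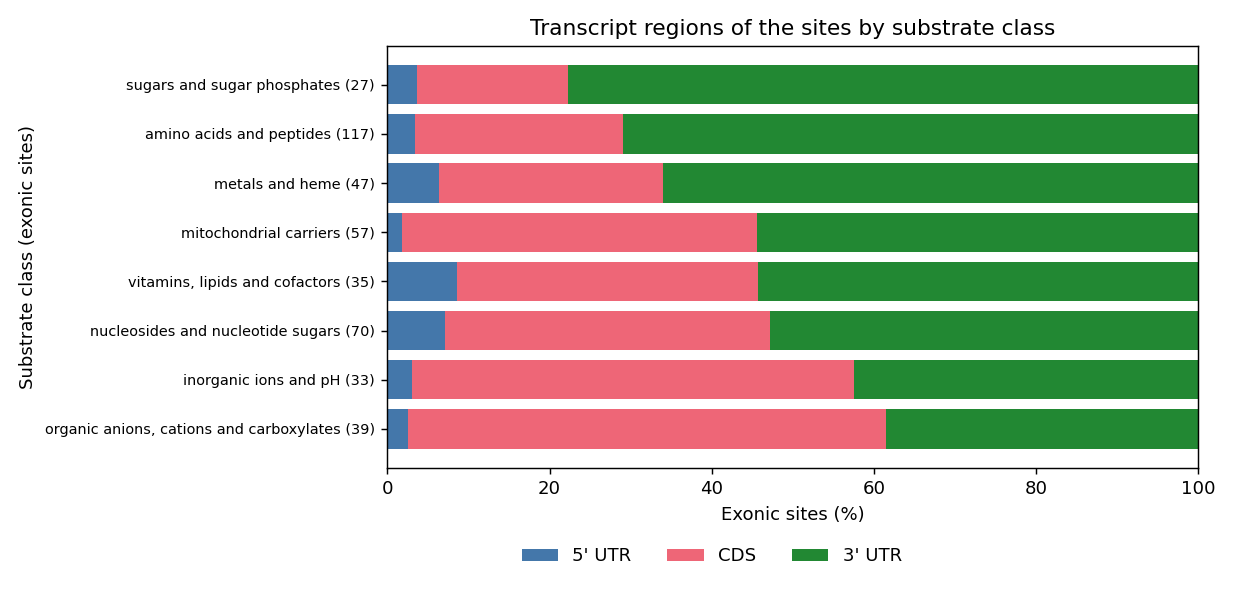
Horizontal bars divide the exonic sites of each substrate class (vertical axis, number of exonic sites in brackets) by transcript region, in percent (horizontal axis). The 3′ UTR share falls from 77.8% in sugar carriers to 38.5% in carriers of organic anions, cations and carboxylates.

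Other leaders of classes were Slc25a44, Slc2a6 and Slc44a2. Slc25a44, the mitochondrial carrier of branched-chain amino acids, had 9 sites, 5 of them in a run of 161 nt that crossed the stop codon from 14 nt before it to 146 nt after it. The last site of that run had the highest score of the gene, 0.918. Slc2a6, the glucose transporter family member GLUT6, had 8 sites, all in a 3′ UTR of only 551 nt, which gave it 3.74 exonic sites per kb of transcript. Slc44a2, of the choline transporter-like family, had 8 as well, all in the 3′ UTR, with scores of 0.504 to 0.888. In the same class Slc19a1, the reduced folate carrier, also had 8, of which 5 were coding and 3 lay in the 3′ UTR, and it came second only by its lower mean score, 0.704 against 0.716.

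Several families had more than 1 gene with many sites, and the genes named in the rest of this paragraph were singled out after their values were seen. Their counts of genes stand beside 28.3% of all Slc genes and 23.1% of all protein-coding genes with a site, and nothing is read from them. The Slc38 family of amino acid transporters had 35 sites in 4 of 11 genes, and all but those of Slc38a10 were in the 3′ UTR only. Slc38a1 had 8 sites, 4 of them within 51 nt, and Slc38a7 had 5 with a mean of 0.867 ± 0.119. In the Slc16 family, 6 of 14 genes had 35 sites, and each of the 6 had coding as well as 3′ UTR sites. The Slc12 cation-chloride cotransporters had 13 sites in 4 of 9 genes, and the 5 sites of Slc12a7 were all in the 3′ UTR with scores of 0.802 to 0.887. The neighbouring transporter genes Slc6a12 and Slc6a13, of the neurotransmitter transporter family, had 7 and 3 sites. Slc6a12 had 4 sites within 83 nt around the stop codon, from 59 nt before it to 23 nt after it, with a mean score of 0.826. The nucleotide sugar carriers of the Slc35 family had the most sites of any family, 65 in 12 of 27 genes, and Slc35c2, with 4 sites in the 3′ UTR, had the highest mean score among them, 0.898 ± 0.0995.

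Sites in the 5′ UTR were few. The 19 sites lay in 14 genes, with 3 in Slc35e4 and 2 each in Slc1a5, Slc33a1 and Slc39a9. The site nearest to the annotated transcript start was that of Slc27a4, a fatty acid transport protein, at nucleotide 74, with a score of 0.650. No 5′ UTR site reached a score of 0.9.

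Genes with roles in macrophages and in basic metabolism were named whether or not they had a site, and 12 of these 20 had one, beside 28.3% of all Slc genes and 23.1% of all protein-coding genes. The panel was picked by hand, and nothing is read from its count. Of the amino acid transporters among them, besides Slc7a1, Slc7a5 and Slc38a2, the glutamine transporter Slc1a5 (ASCT2) had 9 sites. Its 2 sites in the 3′ UTR, 15 and 74 nt after the stop codon, scored 0.963 and 0.928, while 6 sites lay in its first exon, where scores were 0.532 to 0.868. Slc3a2, the heavy chain that pairs with Slc7a5, the cystine importer Slc7a11 and the second arginine importer Slc7a2 had none listed.

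For metals, Slc11a1 (NRAMP1), which draws metal ions out of the phagosome of macrophages, had 3 sites at 153, 162 and 304 nt after the stop codon, with scores of 0.812, 0.659 and 0.906. Its relative Slc11a2 (DMT1), the iron exporter Slc40a1 (ferroportin), the zinc exporter Slc30a1 and the copper importer Slc31a1 had none listed. The zinc importers of the Slc39 family had 30 sites in 8 of 14 genes, 6 of them the Slc39a7 sites that Gm20427 shares. The zinc exporters of the Slc30 family had 11 sites in 4 of 10 genes. Beside 28.3% of all Slc genes, these counts are a description. Whether the genes without sites were expressed at the level of those with sites was not tested.

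For glucose and its products, Slc2a1 had 5 sites, with its only CDS site 11 nt before the stop codon (score 0.862). The lactate exporter Slc16a3 (MCT4) had 5, of which 3 were in the CDS, all at GGACT, with scores of 0.876, 0.861 and 0.878. Slc37a2, a sugar phosphate exchanger, had 5 in the 3′ UTR, 4 of them within 121 nt and with a mean score of 0.896. The lysosomal histidine and peptide transporters Slc15a3 and Slc15a4 had 3 sites each. Those of Slc15a3 were all in the CDS, and those of Slc15a4 all within 200 nt of the stop codon. Slc20a1, a phosphate importer, had 2 CDS sites (scores 0.691 and 0.818), both in exon 8 of 559 nt. The lysosomal nucleoside transporter Slc29a3 had none listed.

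The 20 genes with a single site lie at the edge of the rule. Their highest scores were 0.956 in Slc25a3, the mitochondrial phosphate carrier, 0.937 in Slc25a17, a peroxisomal carrier of the same family, and 0.867 in the zinc transporter Slc30a6. The lowest were 0.572 in Slc35a2, the UDP-galactose transporter, 0.580 in Slc35a3, the UDP-N-acetylglucosamine transporter, and 0.592 in Slc35e3. Sites below a score of about 0.5 are not in the list, and the lowest score in any Slc gene was 0.501, in Slc35e4. The lowest single-site genes thus lie just inside the rule, and values just outside it were not analysed here.

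All 445 sites were at an adenosine, and 411 were at DRACH (92.4%, 89.5 to 94.5), against 92.0% in the other genes; every one of the 105 genes had at least 1 DRACH site. GGACT was the most frequent motif with 96 sites (21.6%, 18.003 to 25.6) and a mean score of 0.803 ± 0.123. GAACT followed with 56, GGACA with 50 and AGACT with 48. Per occurrence in the spliced Slc transcripts, 91 of 422 GGACT adenosines were listed (21.6%, 17.9 to 25.7), 14.1% of GAACT, 12.4% of AGACT and 9.96% of GGACA, but 0.895% of AAACA. In the other genes the listed shares were 17.0%, 11.6%, 10.3%, 9.14% and 0.667%. TGACT went the other way, with 5.29% listed in the Slc transcripts (3.52 to 7.88) and 6.47% in the others, and it stood below GGACC (7.46%) and AAACT (7.14%) in the Slc transcripts but above both (5.72% and 4.44%) in the others.

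The other 34 sites, in 23 genes, were outside DRACH and scored lower, with a mean of 0.635 ± 0.104 (SD, n = 34 sites), against 0.758 ± 0.120 (n = 411). The motif is an input of the model, so this is a description of its output. GGACG, which differs from DRACH in its last base, made 10 of the 34. The 3 highest-scoring of these are shown as examples of sites that a DRACH filter would drop.
Slc38a10, chr11:120104950-120104970, minus strand: tagacattGGACGgcagctgg
Slc30a5, chr13:100803014-100803034, minus strand: tcaggaatGGACGcataatga
Slc15a3, chr19:10843307-10843327, plus strand: tgtacctgGGACGcttcctca
Their scores were 0.881 in Slc38a10, 0.855 in Slc30a5, a zinc transporter, and 0.854 in Slc15a3.

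Scores were higher toward the 3′ end of the transcript. The mean was 0.643 ± 0.0742 in the 5′ UTR (SD, n = 19 sites), 0.717 ± 0.117 in the CDS (n = 155) and 0.777 ± 0.120 in the 3′ UTR (n = 251). In the other genes the means were 0.627, 0.7001 and 0.768. Over all sites the median was 0.758 in the Slc genes and 0.733 in the others, and the region is also an input of the model. Of the 47 sites of at least 0.9, in 29 genes, 80.9% were in the 3′ UTR (67.5 to 89.6), and none was outside DRACH. The highest mean of a gene with at least 3 sites was 0.903 ± 0.0111 in Slc29a1, the equilibrative nucleoside transporter ENT1, whose 3 sites lay in the 3′ UTR.

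Within the CDS, the 155 sites fell mostly on a few codons. The motif itself limits which codons can hold a site, and no codon share among all DRACH adenosines is given here. The aspartate codon GAC held 56 (36.1%, 28.99 to 43.9), the glycine codon GGA 27, the threonine codon ACT 18, the asparagine codon AAC 16 and the glutamate codon GAA 13, and 1 site was the adenosine of the TGA stop codon of Slc25a12. The middle base of the codon took 74 sites (47.7%), the last base 50 (32.3%, 25.4 to 39.97) and the first base 31 (20%, 14.5 to 26.99). Of the DRACH adenosines in the same coding sequences, 48.1% were at the middle base, 18.7% at the last and 33.2% at the first. The last base thus held a larger share of the listed sites than of the motifs, and the first base a smaller one. The sets are unlike, since only 140 of the 155 listed sites were at DRACH. The part of the mix of motifs in these shares was not tested. The other genes had 49.0%, 26.5% and 24.5% of their CDS sites at the middle, last and first base, and this difference was not tested.

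Other membrane transporters gave few sites for comparison, and their counts of genes stand beside the 23.1% of all protein-coding genes. Among ABC transporters, 10 of 50 genes held 28 sites, of which 57.1% (39.1 to 73.5) were in the 3′ UTR. Among the Slco organic anion transporters, Slco4a1 was the only gene of 14 with sites, and it had 10. The interval of the ABC genes spans both the Slc share of 56.4% and the 41.5% of all other protein-coding genes.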

How the data were processed

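miCLIP2 libraries of 3 untreated RAW 264.7 replicates were analysed by the authors. Per the labels and the study's methods, reads were aligned with STAR (2.7.3a), handled with SAMtools (1.9) and bedtools (2.27.1) and deduplicated by UMI with UMI-tools (1.0.0), on GRCm38 with GENCODE annotation. Peaks were called with PureCLIP per replicate and kept where more than 1 replicate had them, and m6Aboost then scored the peaks at adenosines. The deposited score (0.5 to 1) is a prediction pooled over the replicates, and read counts were not used here. Only the sites that passed the prediction are in the list.

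Sites were placed here with Python (3.11.15) and pysam (0.24.0) on GENCODE M21, in each gene on the coding transcript with the longest CDS, the stop codon counted as CDS. The authors named another GENCODE release, and the effect of the release was not tested. BED starts were read as 0-based: this puts all 19301 sites on an adenosine. DRACH was read on the transcribed strand, and sequences are from the GRCm38 reference. A long exon was one over 400 nt, the stop codon window 200 nt on either side, the grouping distance 100 nt. Sites in Slc genes were left out of the comparison set. Intervals are 95% Wilson intervals from SciPy (1.17.1). Placement was tested on simulated sites.

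The genes and lists were chosen with earlier results of these data known. Named were the 10 genes with the most sites, the leader of each class, the genes with the 5 highest scores, a panel of 20 genes, the single-site genes with the 3 highest and 3 lowest scores, and members of any count of 5 or fewer. Slc29a1, the Slc38a2 and Slc39a14 runs and the GGACG examples were chosen after their values were seen. Classes follow family numbers. No test over samples was possible. Results on some genes are not reported here.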

Additional observations from a re-analysis of the deposited data

How the results depend on the processing

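Of 124 alternatives computed, 89 left the value within its 95% interval, or a count within 1.5 times, and 35 moved it. With a minimum score of 0.7, 274 sites remained, of which 97.8% were at DRACH, 29.9% in the CDS, 64.6% in the 3′ UTR, 1.09% in the 5′ UTR, 83.6% in the last exon and 48.5% near another site, with a median score of 0.831 and 4.49 sites per 100 DRACH adenosines. With a minimum of 0.9, 47 sites in 29 genes (median 1 per gene) remained: 100% at DRACH, 12.8% in the CDS, 80.9% in the 3′ UTR, 0% in the 5′ UTR, 45.5% in the stop codon window, 95.5% in the last exon, 2.27% in long internal exons and 29.5% near another site, with a median score of 0.928 and 2.51 sites per 100. Fewer sites and genes enter these values by construction. Counting 1 site per gene gave 98.1% at DRACH, 61.0% in the 3′ UTR, 42.6% in the stop codon window and a median score of 0.867. The motif RRACH held 83.4%, A followed by C 99.1%, and the BED start read as 1-based 0% at DRACH. On the supported transcript with the longest span, 29.7% were in the CDS. Stop codon windows of 100 and 400 nt held 19.1% and 52.7%, internal exons over 800 nt 3.76%, and grouping distances of 50 and 200 nt 44.7% and 74.1%. The 3′ UTR share stayed above the CDS share in each alternative. Leaving out Slc35e4, leaving out sites shared with genes outside the Slc set, merging sites within 5 nt, and, chosen after seeing the data, leaving out Slc22a14 or all 3 genes whose every site lay in an exon of another gene moved no value beyond its interval. No paired analysis was possible because no replicate number is attached to the sites, which also means that replicates were not left out in turn. Depth per site is unknown.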
